A study of Homo sapiens with 39 samples.

Results

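Described here are 10 genes, FGFBP1, FGFBP3, FGF2, FGF9, FGF13, FGF19, FGFR1, FGFR2, FGFR3 and FGFR4, which are 10 of the 45435 gene rows in the data. They are FGF-binding proteins, members of the FGF ligand family and the FGF receptors, and they were selected on their names after earlier results of these data had shown FGFBP1 to be lower in every line. The differences from the parental cells that chose FGFBP1 are therefore given as a description, with no test, for all 10 genes. Of the 10, 9 reached an average of 1 TPM across the 39 libraries and entered the model, while FGF9, averaging 0.582 TPM, did not. TPM is transcript abundance corrected for transcript length and scaled to the same total in every library.

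RNA-seq was carried out on HCT116 cells, a human colorectal cancer cell line, with 3 libraries in each of 13 groups. The parental cells were the Flp-In T-REx host without any construct. In the other 12 groups, each a separate stable line, the cells held a single inserted copy of 1 isoform of hepatocyte nuclear factor 4 alpha (HNF4A), a nuclear receptor transcription factor, joined to GFP at its C-terminus and switched on by doxycycline. All 13 groups, the parental cells included, received 2.5 µg/ml doxycycline for 48 h. Until induction, selection was with blasticidin (5 µg/ml) in all groups, plus zeocin (100 µg/ml) for the parental cells or hygromycin B (100 µg/ml) for the lines. No group carried GFP alone, and each isoform is 1 line, so an isoform's effect cannot be told apart from that of GFP, the antibiotics used earlier or the line itself. By the standard naming of these isoforms, isoforms 1 to 6 start at the P1 promoter and 7 to 12 at the P2 promoter. Isoforms 4 to 6 carry an additional N-terminal exon that isoforms 1 to 3 lack.

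Fibroblast growth factors are secreted ligands that bind 4 tyrosine kinase receptors together with heparan sulfate, a sugar chain on cell-surface proteoglycans. FGF-binding proteins release ligands such as FGF2 from the heparan sulfate of the matrix, so that they can reach their receptors. The active receptor recruits adaptor proteins and drives the RAS-ERK cascade, which turns on its own feedback inhibitors, among them DUSP6 and the Sprouty proteins. FGF19 is an intestinal hormone that is released in response to bile acids, and FGF13 belongs to a subfamily that stays inside the cell and binds sodium channels.

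The upstream sequence of FGFBP1 is shown because it is the gene that was lower in all 12 lines and because HNF4A is a DNA-binding factor. FGFBP1 (ENSG00000137440.4) is a protein-coding gene on the minus strand of chromosome 4 at 15935569 to 15938740 (GRCh38). The 250 bases before its start, from RefSeq on GRCh38.p14 at chr4:15938741-15938990, read 5′ to 3′ on the minus strand with nothing in capitals because no searched motif was found:
FGFBP1: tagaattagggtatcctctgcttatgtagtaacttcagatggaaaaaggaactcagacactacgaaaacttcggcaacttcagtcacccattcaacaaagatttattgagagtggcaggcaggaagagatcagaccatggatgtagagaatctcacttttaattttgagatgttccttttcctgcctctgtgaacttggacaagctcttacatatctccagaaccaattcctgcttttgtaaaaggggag

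The search covered both strands for the HNF4 motifs CAAAGTCCA and CAAAGGTCA, the direct repeat of AGGTCA with 1 base between its copies, the AP-1 motif TGANTCA and the ETS motif CCGGAAGT. Of 35116 promoters of the same length, 0.325% held CAAAGTCCA, 0.339% held CAAAGGTCA, 0.0171% held the direct repeat, 6.57% held TGANTCA and 3.42% held CCGGAAGT. A promoter was matched for 7 of the 10 genes. Among those 7 the only match was 1 TGANTCA upstream of FGF13.

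HNF4A itself, summed over the rows that hold it, was 31.5 ± 0.589 TPM in the parental cells (SD, n = 3) and 19.5 to 34.0 times that level in the 12 lines, as a ratio of group means. In the isoform 3 line, HNF4A was at 407 TPM in library 1, compared with 833 and 772 TPM in libraries 2 and 3, so results for that line are given with and without it. Of the epithelial markers, EPCAM (433 to 624 TPM), KRT8 (1030 to 2490 TPM), KRT18 (588 to 1690 TPM) and KRT19 (324 to 879 TPM) were high in all libraries. CDH1 was at 20.6 to 61 TPM, CDX2 at 8.99 to 16.4 TPM and CDX1 at or near 0. Summed levels of markers of other cell types were lower. The 6 fibroblast markers summed to 8.78 to 16.9 TPM in the lines and 13.5 to 15.5 TPM in the parental cells, mostly COL1A1 (7.76 to 14.9 TPM), with DCN and LUM at or near 0. The 4 endothelial markers summed to 1.69 to 6.93 TPM in the lines and 2.59 to 3.17 TPM in the parental cells, mostly PECAM1. The 4 immune markers summed to 5.05 to 34.9 TPM in the lines and 3.54 to 4.8 TPM in the parental cells, nearly all of it CD68, with PTPRC at most 0.296 TPM. The 4 hepatocyte markers summed to 0.252 to 0.797 TPM in the lines and 0.475 to 0.737 TPM in the parental cells, mostly ALB. The part of these markers in the results was not tested. TPM keeps no read depth, so the depth behind the value of a single library is unknown. Summed over genes, the authors' mean normalised counts were 50609338 to 56136330 per comparison. Nothing in the labels says that the libraries of a group came from separate cultures, and the p-values below measure only the spread between these samples. In bulk RNA, fewer cells expressing a gene and less of its RNA per cell cannot be told apart.

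FGFBP1, the secreted carrier of FGF2, was lower than in the parental cells in all 12 lines. The 3 parental libraries had 31.5, 36.9 and 29.96 TPM. The isoform 2 line had 4.92, 3.56 and 3.53 TPM, the isoform 10 line 4.73, 5.39 and 3.5 TPM, and the isoform 1 line 4.59, 5.49 and 4.57 TPM. These 3 lines were the lowest, their ranges overlapped one another, and none reached the next line, isoform 5, which had 8.06, 8.29 and 5.97 TPM.

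The other 8 lines lay between that level and the parental cells. Isoform 12 had 8.89, 8.27 and 7.72 TPM, isoform 8 had 9.94, 8.89 and 8.67 TPM, and isoform 11 had 12.5, 11.8 and 9.85 TPM. Isoform 4 had 12.7, 14.1 and 11.4 TPM and isoform 7 had 14.7, 14.6 and 10.5 TPM. From isoform 5 upward each line overlapped its neighbour in the order, although isoforms 5, 12 and 8, with at most 9.94 TPM, lay wholly below isoforms 4, 6, 7 and 9, with at least 10.5 TPM. Isoform 6 had 14.9, 17.2 and 11.6 TPM, and isoform 9, the highest line, had 16.2, 17.6 and 12.3 TPM. Every one of these values lay below the lowest parental library.

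Isoform 3 had 23.2, 10.5 and 7.91 TPM, and the library at 23.2 TPM was the one with the least HNF4A. Without that library the log2 difference of this line from the parental cells was -1.73, against -1.31 with all 3. On the log2(TPM + 1) scale, which understates changes of low genes, the differences ran from -2.76 ± 0.22 (SE) in isoform 2, -2.62 ± 0.22 in isoform 10 and -2.52 ± 0.22 in isoform 1 to -1.05 in isoform 9. In the authors' deposited tables, the log2 fold change of FGFBP1 ran from -2.81 in isoform 2 to -0.91 in isoforms 6 and 9. In each of the 11 groups whose libraries carry a number, the library numbered 3 had the lowest FGFBP1. The labels do not say whether a number marks a shared culture or day.

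**Figure D1:**
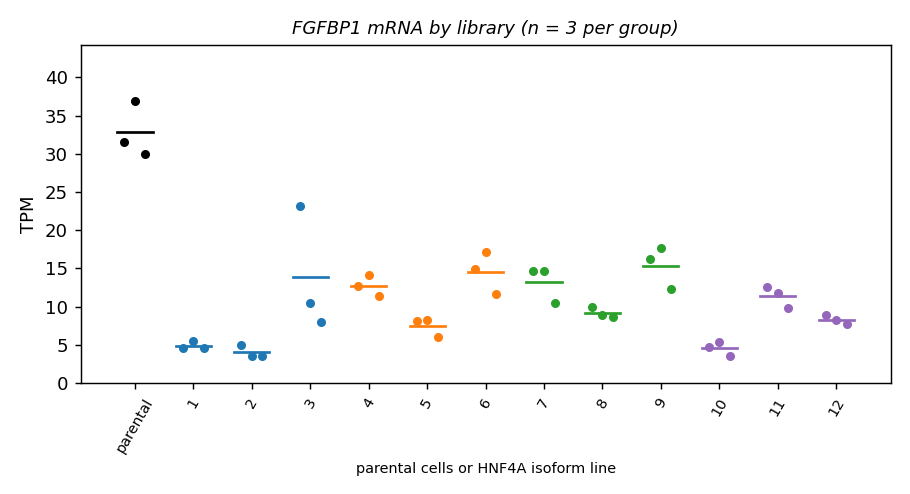
FGFBP1 in TPM (y axis, from 0) in parental cells and the 12 HNF4A isoform lines (x axis); points are the 3 libraries of a group, the bar is their mean and colours mark the N-terminal forms (isoforms 1 to 3, 4 to 6, 7 to 9 and 10 to 12). The parental libraries sit between 29.96 and 36.9 TPM, above every library of every line, and the isoform 1, 2 and 10 lines sit lowest, at 3.5 to 5.49 TPM.

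FGFBP3 (ENSG00000174721.9, chromosome 10, 91906589 to 91909483), a related binding protein, was low throughout, between 0.859 and 2.12 TPM. The parental libraries had 1.68, 1.6 and 1.6 TPM, the lowest line (isoform 1) 0.859, 1.25 and 1.17 TPM, and the highest line (isoform 5) 1.93, 1.91 and 2.09 TPM. Isoforms 5 and 8 lay wholly above the parental cells and isoforms 1, 2, 7, 10, 11 and 12 wholly below. The log2 differences ran from -0.33 ± 0.1 (SE) to 0.18 ± 0.1. The parental libraries spanned only 1.6 to 1.68 TPM. In isoforms 8, 10 and 11 the differences were no more than 0.11 ± 0.1, -0.08 ± 0.1 and -0.1 ± 0.1. Each group overlapped its neighbour in the order of levels, so FGFBP3 had no step of the kind seen for FGFBP1. The third binding protein, FGFBP2, which lies 21503 bases from FGFBP1, did not exceed 0.831 TPM in any library.

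The genes around FGFBP1 had smaller differences. Within 500 kb of it, 5 genes entered the model (CC2D2A, FBXL5, FAM200B, BST1 and TAPT1), and their log2 differences lay between -0.75 and 0.19. The lowest of these values was that of TAPT1 in isoform 2, -0.75 ± 0.07 (SE; limma, adjusted p = 4.87e-10), and TAPT1 was -0.02 ± 0.07 in isoform 11 (limma, adjusted p = 0.887), a line in which FGFBP1 was -1.45.

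Among the ligands, FGF2, a broadly acting growth factor and the best-known cargo of FGFBP1, had its lowest means in isoforms 1 to 3. The parental libraries had 9.06, 10.4 and 9.35 TPM. Isoform 1 had 2.72, 3.16 and 3.38 TPM, wholly below every other group. Isoform 2 had 3.78, 4.11 and 3.69 TPM and isoform 3 had 6.05, 3.99 and 4.7 TPM, and these 2 lines overlapped. The log2 differences were -1.38 ± 0.11 (SE), -1.12 ± 0.11 and -0.85 ± 0.11, the last of them -0.99 without the library low in HNF4A.

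The lines of isoforms 4 to 6 were at the parental level of FGF2. Isoform 4 had 8.58, 9.15 and 9.28 TPM, isoform 5 had 9.11, 9.89 and 9.91 TPM and isoform 6 had 9.31, 9.07 and 8.94 TPM, all overlapping the parental range. In these same lines FGFBP1 was lower by 1.13 to 2.01 on the log2 scale, so low FGFBP1 occurred both with and without low FGF2. Isoforms 7 and 11 were intermediate, with 5.04, 5.83 and 5.85 TPM and with 4.68, 5.73 and 5.14 TPM. Isoforms 8, 9 and 10 lay between 6.13 and 9.01 TPM, also below every parental library, and isoform 12, with 6.67, 9.09 and 9.66 TPM, overlapped them. FGF2 (ENSG00000138685.15, chromosome 4, 122826708 to 122898236) overlaps NUDT6 on the opposite strand. Whether counting used the strand is not given in the sources used here, so reads of the overlap may be uncertain. NUDT6 differed from the parental cells by -0.17 to 0.43 on the log2 scale and was 0.2 ± 0.08 (SE) in isoform 1, where FGF2 was -1.38.

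FGF19 (ENSG00000162344.3, chromosome 11, 69698232 to 69704642), the bile acid-responsive hormone, differed in both directions. The parental libraries were close together at 9.47, 9.29 and 9.34 TPM. Isoform 4 had 20.5, 20.3 and 19.0 TPM and isoform 5 had 16.6, 17.98 and 16.6 TPM, the highest lines, each separated from all others. Isoforms 3, 6 and 12 also lay wholly above the parental cells, between 9.82 and 13.6 TPM.

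Isoform 7 had 3.37, 2.87 and 2.97 TPM of FGF19, isoform 9 had 2.38, 3.77 and 3.77 TPM and isoform 11 had 3.99, 4.97 and 4.12 TPM. These 3 lines, all of P2 isoforms, were the lowest. Isoforms 1 and 8 lay between 6.19 and 7.91 TPM, below the parental cells, while isoforms 2 and 10 overlapped them. The log2 differences ran from -1.35 ± 0.1 (SE) in isoform 7 to 1.01 ± 0.1 in isoform 4. FGF19 was thus higher in isoforms 4 and 5 and lower in isoforms 7 and 9, although FGFBP1 was lower in all of them.

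ANO1, a chloride channel gene 373660 bases from FGF19, was tested because it is a neighbour. It rose by 1.12 ± 0.07 (SE) in isoform 4 (limma, adjusted p = 4.55e-13) and fell by 0.93 ± 0.07 in isoform 7 (limma, adjusted p = 3.61e-12) on the log2 scale. It also rose in isoform 2 by 0.90 (limma, adjusted p = 2.97e-12), where FGF19 was -0.06. CCND1, the cyclin D1 gene that lies closest to FGF19 among the tested neighbours at 43758 bases, was 0.12 in isoform 4 and 0.01 in isoform 7. Over the lines CCND1 ran from -0.30 in isoform 9 (limma, adjusted p = 8.89e-06) to 0.50 in isoform 2 (limma, adjusted p = 1.47e-10). MYEOV was -0.32 in isoform 4 and -0.33 in isoform 7, and lowest in isoform 10 at -0.64 (limma, adjusted p = 1.89e-06). FADD lay between -0.14 and 0.07.

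FGF13 (ENSG00000129682.15, chromosome X, 138614731 to 139222777) had the widest range of the 10 genes in proportion to its level. The parental libraries had 2.35, 2.38 and 2.3 TPM. Isoform 6 had 8.17, 8.67 and 8.19 TPM and isoform 8 had 7.99, 6.95 and 8.6 TPM, both wholly above the parental cells. All other lines were wholly below them. The lowest were isoform 7, with 0.124, 0.0893 and 0.117 TPM, and isoform 11, with 0.238, 0.117 and 0.0506 TPM.

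Among the lines below the parental cells, FGF13 spread over 0.0506 to 1.38 TPM with each line overlapping the next. Isoform 3 had 1.29, 0.324 and 0.409 TPM, with the library low in HNF4A again nearest to the parental cells, and its log2 difference was -1.04, or -1.29 without that library. The log2 differences were 1.48 ± 0.13 (SE) in isoform 6, 1.40 ± 0.13 in isoform 8 and -1.59 ± 0.13 in isoform 7. In the authors' deposited tables they were 1.31, 1.54 and -2.45. The antisense gene FGF13-AS1 averaged 0.0778 TPM.

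FGF9 (ENSG00000102678.6, chromosome 13, 21671383 to 21704498), a ligand that acts between neighbouring tissue layers, stayed under the filter of 1 TPM. The parental libraries had 0.581, 0.806 and 0.695 TPM. Isoform 5 had 1.13, 1.07 and 0.938 TPM and isoform 12 had 0.863, 0.872 and 0.891 TPM, both wholly above the parental cells. Isoform 7 had 0.147, 0.161 and 0.14 TPM, isoform 9 had 0.26, 0.255 and 0.226 TPM, and isoform 11 had 0.248, 0.305 and 0.228 TPM. The 3 lines lowest in FGF9 were also the 3 lowest in FGF19, which was noticed after the values were seen.

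**Figure D2:**
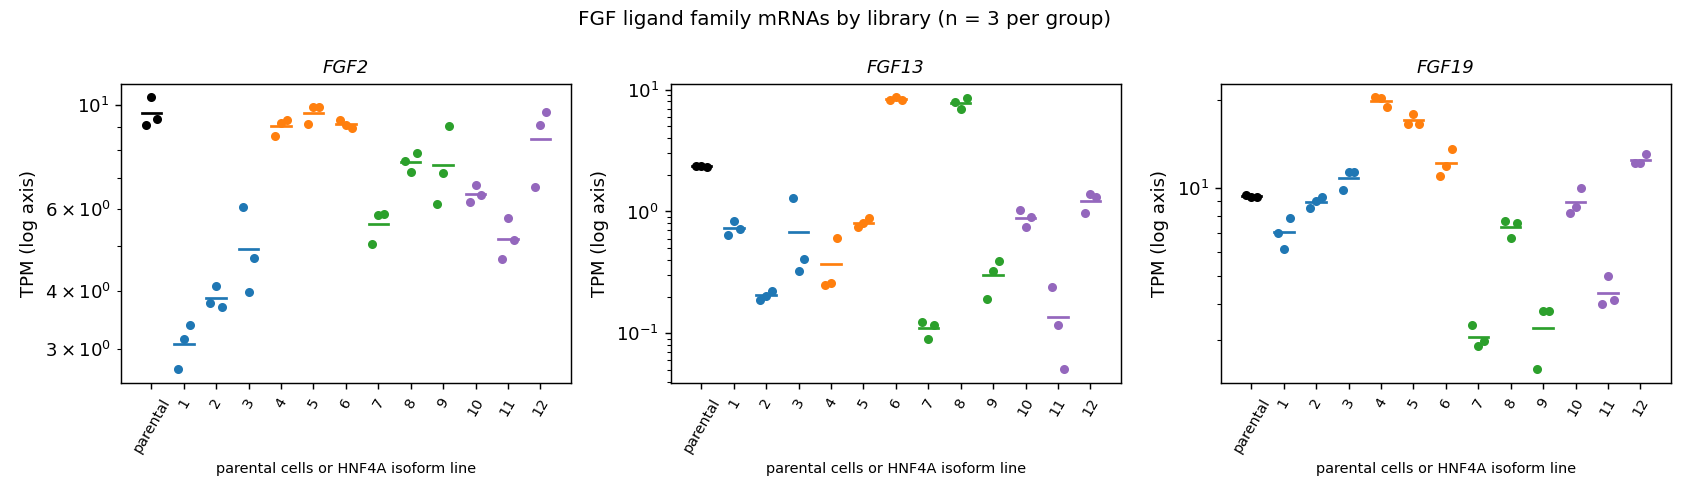
FGF2, FGF13 and FGF19 in TPM (y axes, logarithmic) in parental cells and the 12 HNF4A isoform lines (x axes); points are libraries, bars are means of 3 and colours mark the N-terminal forms. FGF2 has its lowest means in isoforms 1 to 3, with isoform 3 overlapping isoforms 7 and 11. FGF13 exceeds the parental cells in isoforms 6 and 8, and FGF19 is highest in isoforms 4 and 5 and lowest in isoforms 7, 9 and 11.

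Of the receptors, FGFR4 was the most abundant and varied least. Its parental libraries had 48.8, 46.4 and 43.9 TPM, and all 39 libraries lay between 38.9 and 49.7 TPM. The lines lying wholly below the parental cells were isoform 5, with 40.7, 40.4 and 38.9 TPM, and isoform 2, with 41.1, 41.2 and 39.9 TPM. Their log2 differences were -0.21 ± 0.04 (SE) and -0.18 ± 0.04, and those of the other lines lay between -0.09 and 0.06.

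FGFR2 (ENSG00000066468.22, chromosome 10, 121478334 to 121598458) was lowest in isoforms 1 and 2. The parental libraries had 15.0, 17.2 and 15.5 TPM, isoform 1 had 7.09, 7.63 and 6.97 TPM and isoform 2 had 7.1, 7.24 and 7.45 TPM. These 2 lines overlapped each other and lay below every library of the next line, isoform 10, which had 10.8, 11.0 and 10.6 TPM. The log2 differences were -1.04 ± 0.07 (SE) in isoform 1, -1.03 ± 0.07 in isoform 2 and -0.51 ± 0.07 in isoform 10. Isoforms 4, 5, 6 and 9 overlapped the parental cells.

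FGFR1 (ENSG00000077782.20, chromosome 8, 38400215 to 38468834) had 20.4, 20.0 and 21.4 TPM in the parental libraries. All 3 libraries of isoform 1 had 11.4 TPM, and isoform 2 had 12.6, 12.4 and 12.4 TPM. The log2 differences were -0.80 ± 0.07 (SE) and -0.68 ± 0.07, the largest for this receptor. Isoforms 3, 7, 8, 9, 10 and 11 also lay wholly below the parental cells, isoforms 4, 6 and 12 overlapped them, and isoform 5, with 22.1, 21.7 and 22.3 TPM, lay just above. FGFR1 overlaps LETM2 on the opposite strand, a gene averaging 1.91 TPM.

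FGFR3 (ENSG00000068078.18, chromosome 4, 1793293 to 1808872) had 14.7, 14.6 and 15.5 TPM in the parental libraries. Isoform 1, its lowest line, had 8.9, 10.2 and 9.4 TPM. Isoforms 11, 2, 9, 7 and 8 followed, with 10.1 to 12.7 TPM, and overlapped one another as neighbours. Isoforms 4, 5 and 6 overlapped the parental cells, with 13.9 to 15.9 TPM. The log2 differences ran from -0.60 ± 0.06 (SE) in isoform 1 to 0.04 ± 0.06 in isoform 5. For FGFR1, FGFR2 and FGFR3 alike, isoform 1 had the lowest mean, and no line of isoforms 4 to 6 lay wholly below the parental cells. The isoform 1 range overlapped that of isoform 2 for FGFR2 and those of isoforms 7 and 9 for FGFR3.

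**Figure D3:**
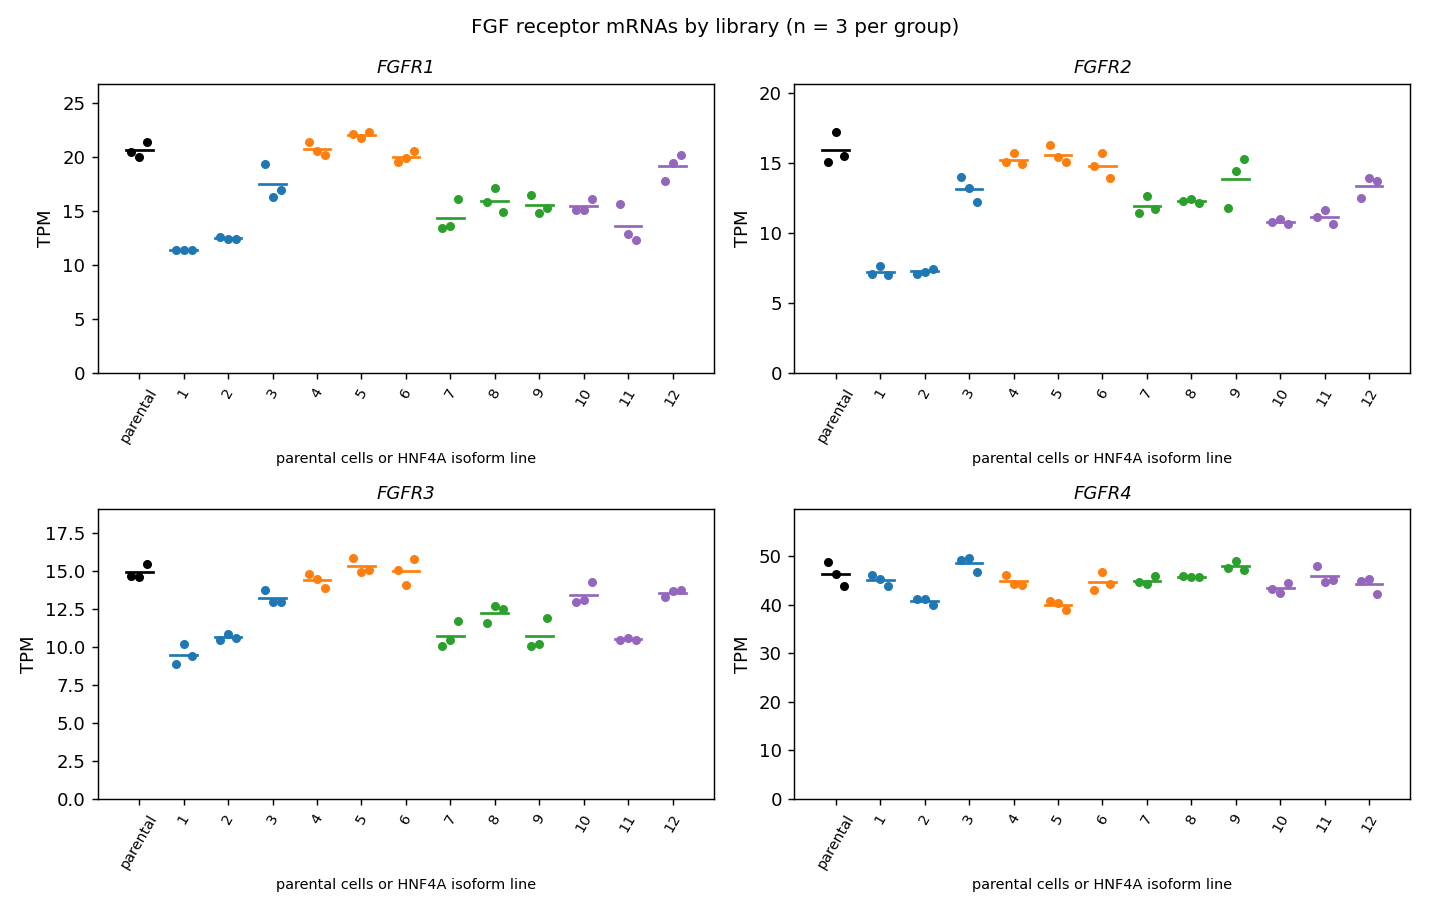
FGFR1, FGFR2, FGFR3 and FGFR4 in TPM (y axes, from 0) in parental cells and the 12 HNF4A isoform lines (x axes); points are libraries, bars are means of 3 and colours mark the N-terminal forms. FGFR1, FGFR2 and FGFR3 have their lowest means in isoform 1, while FGFR4 stays between 38.9 and 49.7 TPM in all libraries.

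**Figure D4:**
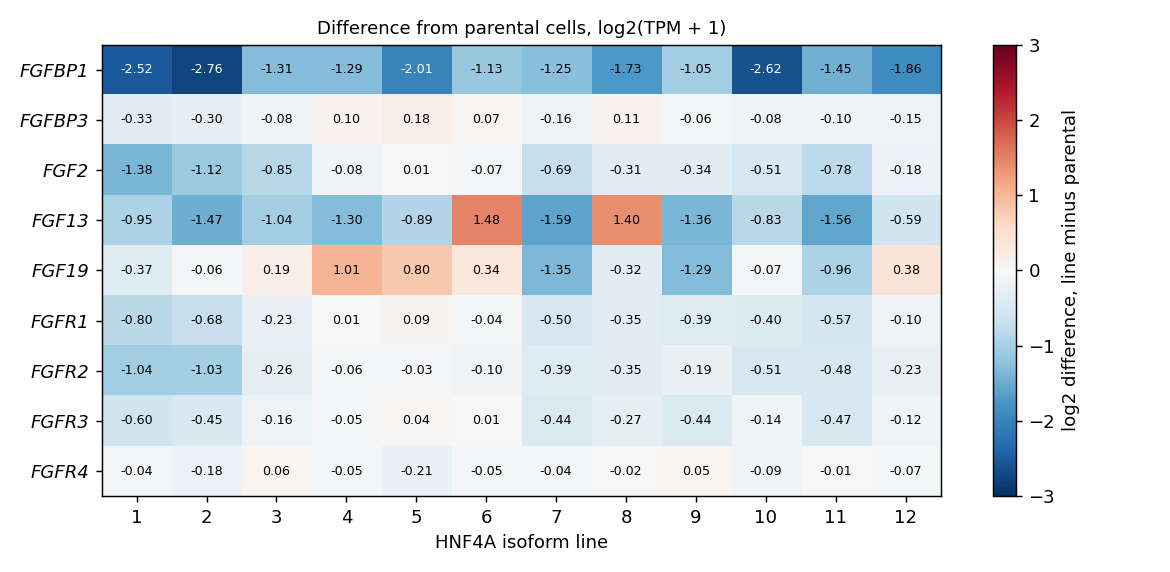
Log2 differences, line minus parental cells on the log2(TPM + 1) scale, for the 9 genes that entered the model (rows) in the 12 HNF4A isoform lines (columns); blue is lower, red is higher and the number in each cell is the difference. FGFBP1 is lower in all 12 lines, from -2.76 to -1.05, while FGF13 and FGF19 take both signs.

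The isoforms with the additional N-terminal exon were set against those without it on the P1 side, using the 12 line means as units, so that each isoform counts once and the C-terminal form is held constant. The difference, isoforms 4 to 6 minus isoforms 1 to 3, was 1.07 ± 0.14 (SE) for FGF2, 0.72 ± 0.14 for FGFR2, 0.59 ± 0.13 for FGFR1 and 0.40 ± 0.12 for FGFR3 on the log2 scale. It was -0.05 ± 0.06 for FGFR4. For FGFBP1 it was 0.72 ± 0.34, for FGF19 0.80 ± 0.38 and for FGF13 0.92 ± 0.83. The SE comes from all 12 line means. It is larger where these depart more from the sum of an N-terminal and a C-terminal part. Against the parental cells, FGFBP1 was -1.29 in isoform 4 and -2.01 in isoform 5, for instance. It was -2.62 in isoform 10 and -1.45 in isoform 11, a difference of the opposite sign. These values are a description, since the 10 genes were chosen with results of the same lines known.

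The rest of the pathway was followed with a list of 95 genes that holds none of the 10, of which 65 entered the model. The 30 under the filter reached at most 1.49 TPM in any library. Of 18 other ligands only FGF8, FGF11, FGF22 and FGF23 were tested, and none of these 4 passed an adjusted p of 0.05 (limma) in any line, while 2 of their comparisons had an unadjusted p under 0.05. The FGF19 co-receptor KLB averaged 0.197 TPM and the related KL 0.00643 TPM. The list was written with earlier results of these data known, so its counts are set beside those of all 15003 genes tested in the same model.

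By an adjusted p under 0.05 (limma, Benjamini-Hochberg over all genes tested), more list genes fell than rose in 10 of the 12 lines, and more of all genes fell than rose in 9 of the 12. With all genes scaled by median-of-ratios factors, these numbers became 8 and 0. In isoform 1, 17 list genes rose and 27 fell (26.2% and 41.5% of 65), against 19.8% and 38.7% of all genes. In isoform 2, 14 rose and 29 fell (21.5% and 44.6%), against 19.7% and 35.6%. In isoform 3, 5 rose and 19 fell (7.69% and 29.2%), against 11.2% and 14.7%. The scaling moved the median of all genes by over 0.1 in isoforms 1 and 2 (from -0.107 to 0.0152 and from -0.0899 to 0.0181). The counts of list genes that rose and fell became 24 and 25, 23 and 24, and 11 and 16 in isoforms 1 to 3. As a share of those called, list genes that rose went from 38.6%, 32.6% and 20.8% to 49.0%, 48.9% and 40.7%, and all genes that rose went from 33.9%, 35.6% and 43.3% to 55.4%, 56.6% and 67.5%.

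The lines of isoforms 4 to 6 had the fewest list changes together with isoform 12. In isoform 4, 9 rose and 9 fell (13.8% each), against 6.26% and 10.1% of all genes. In isoform 5, 7 rose and 6 fell (10.8% and 9.23%), against 9.57% and 5.22%, and in isoform 6, 2 rose and 10 fell (3.08% and 15.4%), against 5.94% and 4.13%. In isoform 12, 5 rose and 11 fell (7.69% and 16.9%), against 7.92% and 6.65%. After scaling, the counts that rose and fell were 18 and 6 in isoform 4, 8 and 7 in isoform 5, 3 and 10 in isoform 6 and 12 and 10 in isoform 12. The share that rose among those called was then 75.0%, 53.3%, 23.1% and 54.5% for the list, and 70.8%, 59.9%, 70.3% and 69.0% for all genes, compared with 38.3%, 64.7%, 59.0% and 54.3% of all genes before scaling. Leaving out 1 parental library lowered the totals most, to 8 of 13 in isoform 5 (without library 1), 7 of 12 in isoform 6 (without library 2) and 9 of 16 in isoform 12 (without library 3).

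On the P2 side, 7 list genes rose and 29 fell in isoform 7 (10.8% and 44.6%), against 13.4% and 26.2% of all genes. In isoform 8, 4 rose and 26 fell (6.15% and 40.0%), against 16.9% and 17.5%. In isoform 9, 4 rose and 22 fell (6.15% and 33.8%), against 10.9% and 11.8%. In isoform 10, 11 rose and 22 fell (16.9% and 33.8%), against 17.0% and 20.4%, and in isoform 11, 6 rose and 28 fell (9.23% and 43.1%), against 14.5% and 24.0%. After scaling the counts were 19 and 23 in isoform 7, 14 and 25 in isoform 8, 6 and 20 in isoform 9, 18 and 18 in isoform 10 and 13 and 23 in isoform 11. The share that rose among those called was then 45.2%, 35.9%, 23.1% and 36.1% for the list in isoforms 7, 8, 9 and 11, with an equal split in isoform 10. For all genes it was 59.0%, 61.3%, 62.7%, 59.0% and 61.1% in isoforms 7 to 11, compared with 33.8%, 49.1%, 47.9%, 45.4% and 37.7% before scaling. The median log2 difference of the list lay between -0.19 (isoform 2) and 0.04 (isoform 5), and that of all genes between -0.11 (isoform 1) and 0.01 (isoform 5).

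The calls were also counted by role, without a test of differences between roles. The counts use the unscaled values and were not repeated with the median-of-ratios scaling, which moved the split of rises and falls. Of all genes, 38.7%, 35.6%, 26.2%, 17.5%, 11.8%, 20.4% and 24.0% fell in isoforms 1, 2 and 7 to 11. Falls were 10.1%, 5.22% and 4.13% in isoforms 4, 5 and 6. Rises were 19.8%, 19.7%, 6.26%, 9.57% and 5.94% in isoforms 1, 2, 4, 5 and 6. Of 9 tested proteoglycan genes, 7 fell in each of isoforms 7, 8, 10 and 11, and 6 fell in each of isoforms 1, 2 and 9. Of 11 heparan sulfate enzymes, 8 fell in isoform 7 and 7 in each of isoforms 1 and 2. The adaptors and the RAS-ERK core had more rises than falls in isoforms 1 and 2, where 7 of 19 rose and 2 and 3 fell. Of 10 feedback inhibitors, 6 fell in isoform 7, 5 in each of isoforms 8 and 11 and 1 in isoform 6. Of 10 ERK-responsive transcription factors and cyclin genes, 7 fell in isoform 2, 6 in isoform 1 and 5 in each of isoforms 9 and 11. In isoform 4, 3 rose and 2 fell, in isoform 5, 0 rose and 3 fell, and in isoform 6, 1 rose and 4 fell.

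Larger changes, of at least 1 on the log2 scale with an adjusted p under 0.05, were few. Isoform 2 had 8 of 65 list genes past that mark (12.3%, against 3.73% of all genes), isoform 1 had 6 (9.23%, against 4.52%) and isoform 7 had 3 (4.62%, against 2.08%). Isoforms 5, 9, 10 and 11 had 1 each (1.54%), against 0.293%, 0.827%, 1.44% and 1.7% of all genes. Isoforms 3, 4, 6, 8 and 12 had none, against 0.807%, 0.54%, 0.247%, 1.41% and 0.573%. In these 5 lines 24, 18, 12, 30 and 16 list genes passed the adjusted p alone, and 28, 25, 16, 41 and 25 had an unadjusted p under 0.05 (limma). Without the library low in HNF4A, 2 list genes, DUSP6 and GAB1, passed the mark in isoform 3.

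DUSP6, the phosphatase that switches off ERK and a usual readout of FGF signalling, had 83.3, 86.7 and 96.8 TPM in the parental libraries in ascending order. It had 27.3 to 31.4 TPM in isoform 2 and 34.8 to 35.8 TPM in isoform 1, and fell by 1.57 ± 0.10 (SE; limma, adjusted p = 1.62e-14) and 1.31 ± 0.10 (limma, adjusted p = 7.76e-13) on the log2 scale. It also fell in isoform 3 and in each P2 line, with differences of -0.99 to -0.53. In isoforms 4 and 6 it was 0.11 and -0.03 and did not pass the test, and in isoform 5 it rose by 0.30 ± 0.10 (limma, adjusted p = 0.0289). That rise lost its call without parental library 1 or 2 or without either of 2 libraries of the line, with an adjusted p of up to 0.128. In isoform 3 it was -0.87 with all libraries and -1.03 without the library low in HNF4A.

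SPRY4, a Sprouty inhibitor of receptor signalling, was also lower in the lines other than isoforms 4 to 6. It fell by 1.32 ± 0.09 (SE; limma, adjusted p = 5.48e-13) in isoform 2 and by 0.49 to 0.98 in the other 8 of these lines. In isoforms 4, 5 and 6 it was -0.05, -0.12 and -0.09 and did not pass the test (limma, adjusted p of 0.782, 0.467 and 0.622). IER3, an early response gene, fell past the fold mark in isoform 10, by 1.17 ± 0.12 (limma, adjusted p = 3.66e-09), from 212 to 241 TPM in the parental libraries to 89.3 to 107 TPM. It also fell in the other 11 lines, isoforms 4 to 6 included, with differences of -0.99 to -0.36, and it did not pass the test between isoforms 4 to 6 and isoforms 1 to 3 (0.21 ± 0.12; limma, adjusted p = 0.185). Its falls in isoforms 6 and 9 lost their call under an alternative, with an adjusted p (limma) of up to 0.067 and 0.123.

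The ETS factors ETV1, ETV4 and ETV5 are induced by ERK. ETV1 fell in isoforms 1 to 3 and 7 to 11, and it was -0.13 in isoform 12, which did not pass the test (limma, adjusted p = 0.282). ETV1 in isoform 10 was only -0.20 (limma, adjusted p = 0.0433), a call that was lost under an alternative (limma, adjusted p of up to 0.137). It fell by 1.15 ± 0.08 (SE; limma, adjusted p = 2.73e-13) in isoform 2 and rose by 0.26 ± 0.08 (limma, adjusted p = 0.0312) in isoform 6, a call that was lost without any 1 of the 6 libraries compared (limma, adjusted p of up to 0.102). ETV4 also fell in isoforms 1 to 3 and 7 to 11 and was -0.11 in isoform 12, which did not pass the test (limma, adjusted p = 0.175). It fell by 0.65 ± 0.05 in each of isoforms 1 and 2 and rose by 0.57 ± 0.05 (limma, adjusted p = 4.25e-09) in isoform 4, from 104 to 110 TPM in the parental libraries to 157 to 162 TPM. ETV5 moved less, from -0.39 ± 0.06 in isoform 7 (limma, adjusted p = 2.94e-06) to 0.16 ± 0.06 in isoform 4, which did not pass the test (limma, adjusted p = 0.0628, or 0.000648 with the median-of-ratios scaling). It was -0.12, -0.11 and 0.01 in isoforms 3, 10 and 12, which did not pass the test (limma, adjusted p of 0.148, 0.164 and 0.956).

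**Figure D5:**
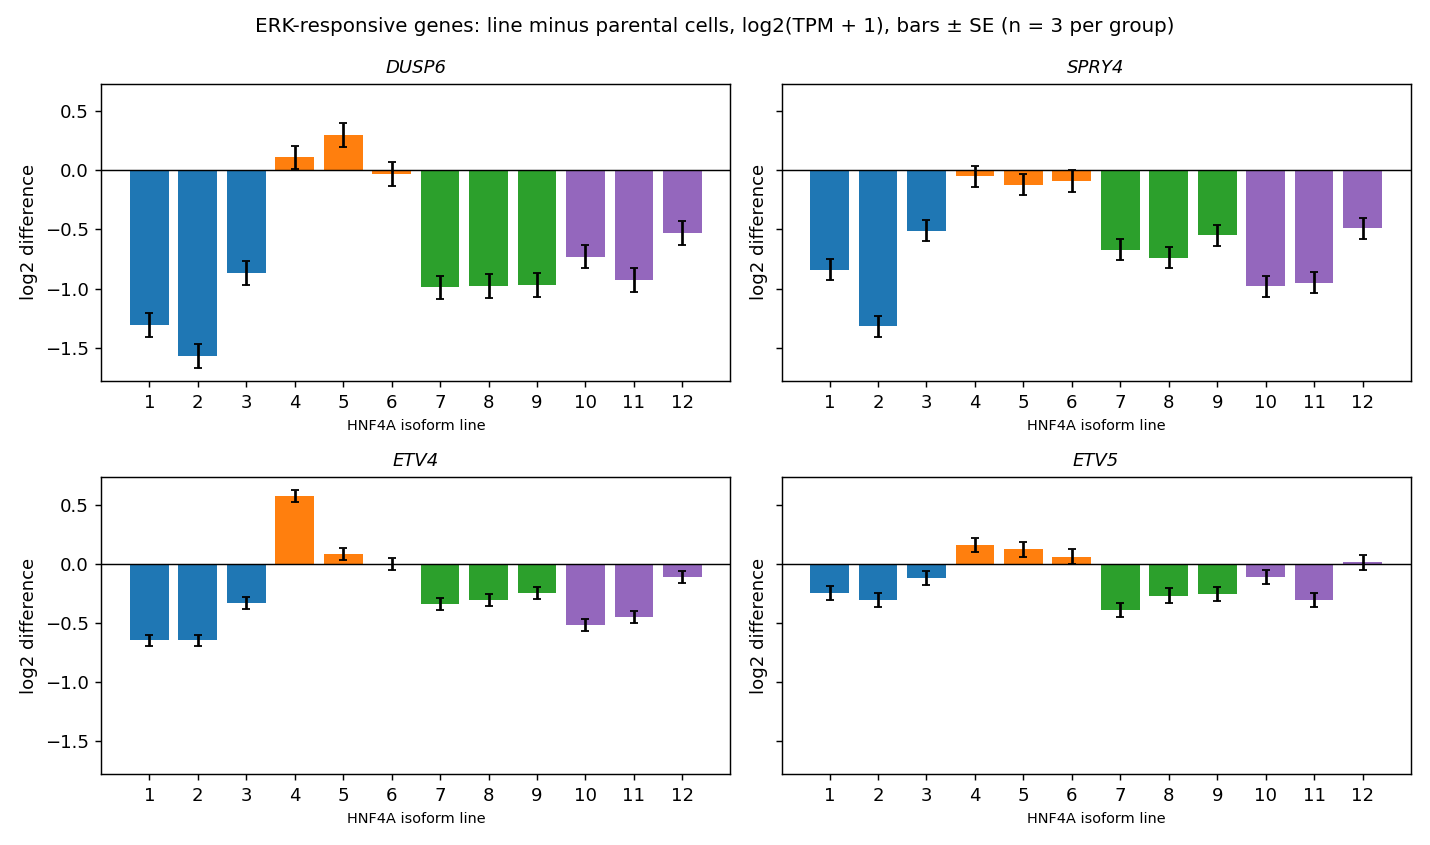
Log2 differences, line minus parental cells on the log2(TPM + 1) scale (y axes), of DUSP6, SPRY4, ETV4 and ETV5 in the 12 HNF4A isoform lines (x axes); bars are model estimates, whiskers are SE and colours mark the N-terminal forms. DUSP6 and SPRY4 are lower in isoforms 1 to 3 and 7 to 12 and near 0 in isoforms 4 and 6, and ETV4 is 0.57 higher in isoform 4.

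Other list genes passed the fold mark in 1 to 3 lines each. GAB1, an adaptor that links receptors to RAS, rose from 3.36 to 4.0 TPM in the parental libraries to 12.5 to 14.7 TPM in isoform 1 and 11.6 to 14.6 TPM in isoform 2, by 1.61 ± 0.14 (SE; limma, adjusted p = 6.39e-11) and 1.55 ± 0.14. FOS, an early response transcription factor, rose by 1.58 ± 0.15 in isoform 1, 1.12 ± 0.15 in isoform 2 and 1.15 ± 0.15 in isoform 7. In these lines DUSP6, SPRY4 and ETV1 fell. By the adjusted p, FOS also rose in isoforms 4, 8, 10 and 11, by 0.51, 0.69, 0.71 and 0.76. The call in isoform 4 was lost under an alternative (limma, adjusted p of up to 0.103). In the other lines FOS did not pass the test. Among them were isoforms 3, 9 and 12 (limma, adjusted p of 0.153, 0.527 and 0.742), where DUSP6 and SPRY4 fell. All 4 genes are known to respond to ERK, and why they differed was not tested.

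Among heparan sulfate genes, HSPG2 (perlecan, a proteoglycan of the basement membrane) fell by 1.10 ± 0.13 (SE) in isoform 1, 1.07 ± 0.13 in isoform 2 and 1.14 ± 0.13 in isoform 7. HS3ST1, a sulfotransferase, fell by 1.30 ± 0.13 and 1.46 ± 0.13 in isoforms 1 and 2, and GPC3, a glypican, by 1.01 ± 0.10 and 1.02 ± 0.10. HS3ST1 fell in the other 10 lines as well, with differences of -0.92 to -0.40, and it did not pass the test between isoforms 4 to 6 and isoforms 1 to 3 (0.49 ± 0.17; limma, adjusted p = 0.0536). Its falls in isoforms 5 and 9 lost their call under an alternative, with an adjusted p (limma) of up to 0.109 and 0.139. SULF2, an enzyme that trims sulfate from heparan sulfate outside the cell, had 3.45 to 3.76 TPM in the parental libraries. It rose to 8.61 to 8.95 TPM in isoform 5 (by 1.08 ± 0.08; limma, adjusted p = 2.77e-11) and fell to 0.975 to 1.31 TPM in isoform 7 and 1.05 to 1.45 TPM in isoform 9. GPC2 fell by 1.04 ± 0.14 in isoform 11 (limma, adjusted p = 4.01e-07). Other falls were short of the mark, among them HSPG2 at -0.96 in isoform 8, SULF2 at -0.99 in isoform 11, GPC2 at -0.93 in isoform 1 and GPC3 at -0.70 in isoform 7. HSPG2, SULF2, GPC2 and GPC3 did not fall by the adjusted p in isoforms 4 to 6. With the median-of-ratios scaling, GPC3 was -0.90 and -0.92 and HSPG2 -1.0 (short of the mark before rounding) and -0.97 in isoforms 1 and 2, and GPC2 was -0.96 in isoform 11, all short of the mark. Without parental library 3, GPC3 was -0.99 in isoforms 1 and 2 and HSPG2 was -0.99 in isoform 2. GPC3 was also short of it without library 2 or 3 of isoform 1 (-0.98 and -0.95) and without library 1 of isoform 2 (-0.86). SULF2 was -0.98 in isoform 9 without its library 1, and GPC2 was -0.98 in isoform 11 without its library 2.

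The same list was tested between the N-terminal forms, with lines as units. Of 65 genes, 21 were higher in isoforms 4 to 6 than in isoforms 1 to 3 (32.3%, against 22.1% of all genes) and 9 were lower (13.8%, against 12.6%), by limma with an adjusted p under 0.05. Past a difference of 1, 3 were higher (4.62%, against 0.587%) and 1 was lower (1.54%, against 1.37%). The 3 were DUSP6 at 1.38 ± 0.15 (SE; limma, adjusted p = 0.000808), SULF2 at 1.13 ± 0.35 (limma, adjusted p = 0.0351, or 0.114 with no filter on low values) and ETV1 at 1.03 ± 0.13 (limma, adjusted p = 0.00157). The one lower was GAB1, at -1.19 ± 0.14 (limma, adjusted p = 0.00119). SPRY4 differed by 0.81 ± 0.13 (limma, adjusted p = 0.00346), ETV4 by 0.76 ± 0.15 (limma, adjusted p = 0.00714) and ETV5 by 0.34 ± 0.07 (limma, adjusted p = 0.00923).

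The genes whose levels were most like those of FGFBP1 were found by Pearson correlation over the 13 group means, which share the parental cells. They were LOC105379083 (r = 0.944), PIGW (0.935), SMG9 (0.916), WDR90 (0.916) and SLC19A1 (0.914), given as a description. LOC105379083 had a log2(TPM + 1) level of 3.07 in the parental cells and 1.08 to 2.61 in the lines. Over the 12 lines alone the 5 most alike were LOC105379083, PTGES3L, MBOAT1, SLC19A1 and THOP1. Among the FGF genes in the model, r with FGFBP1 over the 13 groups was 0.732 for FGFR2, 0.600 for FGFR4 and 0.546 for FGF2. It was 0.523 for FGFR1, 0.431 for FGFBP3, 0.355 for FGFR3, 0.224 for FGF13 and -0.109 for FGF19. Over the 12 lines alone, r in the same order was 0.727, 0.634, 0.466, 0.437, 0.465, 0.2, 0.132 and -0.187. FGFR4 varied little, with log2 differences of -0.21 to 0.06 from the parental cells.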

How the data were processed

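RNA-seq was analysed from 13 deposited tables with TPM for 39 libraries, 3 per group. Poly(A) RNA and a kit that keeps the strand were used, per the labels' protocols. The submitters' processing notes name Trimmomatic 0.36, FastQC 0.11.5, kallisto 0.44.0, DESeq2 1.22.2 and GRCh38.p12, without their roles. The authors normalised the deposited TPM to 1 total per library. Per the file headers, each line's table adds the authors' mean normalised count (a signal), log2 fold change with its standard error, test statistic (a score), p-value and adjusted p-value. From these the authors' log2 fold changes and mean normalised counts are quoted where named, and the rest were not used. Libraries of isoforms 4 and 5 were matched to their group only, since their 6 labels carry no separate replicate number.

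TPM are not counts, so log2(TPM + 1) was fitted with limma 3.58.1 (R 4.3.3; trended variance, 26 residual degrees of freedom) in 1 model of 13 groups. Genes needed a mean of at least 1 TPM, and p-values were adjusted by Benjamini-Hochberg over all 15003 genes. N-terminal forms were compared on 12 line means (6 residual degrees of freedom). Forms are taken from the standard isoform naming. The procedure was tested on simulated data. Rows of HNF4A were summed. Gene positions are GENCODE v29 on GRCh38, and upstream sequences are RefSeq.

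The 10 genes and the lists were chosen with earlier results of these data known. Named list genes are those past both thresholds in at least 1 line, with DUSP6, SPRY4, ETV4 and ETV5 always, plus tested genes within 500 kb of FGFBP1 and FGF19, the 5 rows most like FGFBP1, and HNF4A. FGFBP2, KLB and KL are named besides as members of the list under the filter. Alternatives were a pseudocount of 0.1, median-of-ratios scaling, no filter, a filter of 5 TPM, the replicate number as a term, and leaving out each library.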

Additional observations from a re-analysis of the deposited data

Results flagged for a closer look

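Some genes lay on both sides of the parental cells, with every library of 1 line above all parental libraries and every library of another below them. The share of all genes that do so was not counted, so it cannot be said whether this is unusual. These differences between lines were not tested, and for each gene the pair with the highest and lowest mean is given on the log2(TPM + 1) scale. FGF13 differed by 3.07 between isoforms 6 and 7, with 2 lines above the parental cells and 10 below. FGF19 differed by 2.36 between isoforms 4 and 7, with 5 lines above and 5 below. FGF9 differed by 0.83 between isoforms 5 and 7, FGFR1 by 0.89 between isoforms 5 and 1, and FGFBP3 by 0.51 between isoforms 5 and 1. The lines with FGFBP3 above the parental cells, isoforms 5 and 8, were only 0.18 ± 0.1 (SE) and 0.11 ± 0.1 above them. Among the pathway genes, SULF2 differed by 2.17 between isoforms 5 and 7, DUSP6 by 1.87 between isoforms 5 and 2, and ETV1 by 1.41 between isoforms 6 and 2. GPC2 differed by 1.34 between isoforms 5 and 11, ETV4 by 1.22 between isoforms 4 and 1, and ETV5 by 0.55 between isoforms 4 and 7. Against the parental cells, GPC2 in isoform 5 (0.30; limma, adjusted p = 0.141) and ETV5 in isoform 4 (limma, adjusted p = 0.0628) did not pass the test.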

How the results depend on the processing

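Of the recomputed counts and FGFBP1 values, 541 stayed within 1.5 times of the count or within 1 SD of the value, 60 moved further, and no FGFBP1 value reversed. With a pseudocount of 0.1, list genes past both thresholds numbered 1, 6, 3, 3 and 3 in isoforms 3, 7, 8, 10 and 11, against 0, 3, 0, 1 and 1. With a filter of 5 TPM, which tests fewer genes, they numbered 3, 5, 0, 1 and 0 in isoforms 1, 2, 5, 7 and 9, against 6, 8, 1, 3 and 1. With median-of-ratios scaling, isoform 11 had 0, against 1. Over the 12 lines alone, 2 of the 5 genes most like FGFBP1 were shared.

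With the pseudocount of 0.1, all genes past both thresholds numbered 1024, 863, 200, 162, 74, 62, 567, 366, 254, 338, 438 and 152 in isoforms 1 to 12, against 678, 560, 121, 81, 44, 37, 312, 212, 124, 216, 255 and 86. With the 5 TPM filter they numbered 355 in isoform 2, and 41, 22, 18, 180, 127, 75, 135, 163 and 56 in isoforms 4 to 12. The cause was not tested. Of the values of single genes, 3427 stayed on their side of the thresholds or within 1 SD, 48 moved further, 42 passed the thresholds only under an alternative, 15 lost them and none reversed.

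Leaving out 1 library gave 0 to 2 list genes past both thresholds in isoform 3 (2 without its library 1), 1 to 2 in isoform 8, 0 to 2 in isoform 9 (0 without its library 1), 1 to 2 in isoform 10 and 1 to 3 in isoform 11 (3 without its library 1). By the adjusted p alone the counts were 8 to 11 in isoform 5, 7 to 9 in isoform 6 and 9 to 15 in isoform 12. For all genes in isoform 3 the range was 96 to 182. The log2 difference of FGFBP1 in isoform 3 was -1.73 without its library 1 and -1.01 without its library 3.

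The replicate number was tried as a block on the 33 numbered libraries, which gives no value for isoforms 4 and 5. Over 165 pairs sharing a number, the median correlation of deviations was 0.0542 (lowest -0.175, highest 0.232). Over pairs with different numbers it was -0.0293. Of 33 libraries, 29 correlated best with their own number, so libraries sharing a number were alike to a small degree. The labels do not say what a number marks. The main model leaves the number out, so its SE and p-values ignore this likeness. With the block, the list count by adjusted p was 45 against 44 in isoform 1 and 36 against 30 in isoform 8. The SE of FGFBP1 in isoform 1 was 0.18 with the block, against 0.22. TPM holds no depth, so the counting error in single libraries is unknown for low genes such as FGF9 and FGF13. The authors' mean normalised count of FGF9 ran from 43.1 (isoform 7 comparison) to 95.1 (isoform 5 comparison). That of FGF13 ran from 57.8 (isoform 7 comparison) to 267 (isoform 6 comparison).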
